A study of Mus musculus with 24 samples.

Results

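The genes for the proteins of the cytosolic ribosome were followed in liver RNA from female *Lmna* ADKO and control mice. They were taken by mouse symbol from the rows of the count table. The symbol had to be Rpl or Rps followed by p0 to p2, by a, or by a number. After the number, an a, x or l and then a final digit were allowed, each optional. This rule found 87 of the 23972 genes in the table, 35 with an Rps symbol, 49 with an Rpl symbol and the 3 stalk genes *Rplp0*, *Rplp1* and *Rplp2*. Of these 87, 82 were annotated as protein coding and 5 as processed pseudogenes, and 84 had a mean of at least 1 CPM, counts scaled to a library of 1000000 reads. *Fau*, which encodes a ribosomal protein fused to a ubiquitin-like protein, falls outside the rule.

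*Lmna* ADKO mice carried *Lmna* fl/fl, with loxP sites around exons 10 and 11, and Adipoq-Cre, which is active in adipocytes and leaves the liver gene intact. Controls were *Lmna* fl/fl without Cre, so the floxed alleles were shared by all groups. All mice were on a C57BL/6J background, 12 to 14 weeks old at the start, housed at 22°C, and fed a 60% fat diet for 4 weeks before injection, with tissue taken 8 weeks after it. The labels name the treatments Vehicle and Rescue. The results and figure legends of the study describe the treated arm at 22°C as FGF21 alone, and its methods name AAV8 vectors. The link of Rescue to AAV8-FGF21 was taken from these. The 24 libraries, 1 per animal, comprised 7 control vehicle, 3 control rescue, 6 *Lmna* ADKO vehicle and 8 *Lmna* ADKO rescue livers, with 19863304 to 21510054 counted reads each.

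A cytosolic ribosome consists of a small (40S) subunit, which reads the mRNA, and a large (60S) subunit, which forms the peptide bond. Each holds a set of ribosomal proteins made in matched amounts, and their mRNAs are among the most abundant short mRNAs of a cell. Many of these mRNAs begin with a C followed by a run of pyrimidines, the 5′ terminal oligopyrimidine (TOP) tract, through which mTOR and the RNA-binding protein LARP1 control their translation and stability. The liver makes most plasma proteins, and translation is a large part of its energy use.

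Start-site sequences are shown for genes that the comparisons turn on, because the TOP tract is the shared feature of this family. RefSeq start windows (GRCm38.p6) were found for 63 of the 87 symbols, in 75 windows. Each line gives 10 bases before the annotated start and 20 from it on, 5′ to 3′, with capitals marking a C followed by at least 4 letters that are each C or T and beginning within 5 bases of the start.
Rps28 (chr17:33824543-33824572, minus strand): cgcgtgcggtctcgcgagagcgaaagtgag
Rpl22 (chr4:152325716-152325745, plus strand): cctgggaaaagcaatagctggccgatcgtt
Rpl28 (chr7:4792955-4792984, plus strand): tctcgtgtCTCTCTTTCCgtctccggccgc
Rps27 (chr3:90213629-90213658, minus strand): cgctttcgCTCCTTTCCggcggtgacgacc
Rps18 (chr17:33955646-33955675, minus strand): cacttccgCTCTCTCTTCCacaggaggcct
Rps6 (chr4:86857348-86857377, minus strand): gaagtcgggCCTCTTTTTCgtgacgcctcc
Rpl38 (chr11:114668570-114668599, plus strand): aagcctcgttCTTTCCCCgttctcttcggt
Rps27l (chr9:66946076-66946105, plus strand): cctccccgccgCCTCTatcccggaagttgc

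Such a tract lay near the start in 32 of the 75 windows (42.7%), against 18.3% of all 32851 windows in the reference. On the opposite strand the same search matched 13.3% of these windows and 20.4% of all windows. No match was found in the windows shown for *Rps28* and *Rpl22*. A match is a description of these letters, and annotated starts can lie some bases away from the true cap site. *Rpl22* and *Rps27l* each had another annotated start, without a match.

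Libraries of 3 animals, fixed at the outset to be reported with and without, stood apart from the rest. They were the third control vehicle library (Sample_491 in the labels), the seventh *Lmna* ADKO rescue library (Sample_8974) and the third control rescue library (Sample_8990). In the other 21 libraries, 1.34% to 1.76% of counted reads fell on ribosomal protein genes. The share was 1.99% in Sample_491, 2.26% in Sample_8974 and 2.68% in Sample_8990. The level over the 84 members, the mean of their log2 CPM after centring each gene on its mean over libraries, ran from -0.33 to 0.21 in the 21 libraries and was 0.55, 0.82 and 1.06 in these 3. By group, the share averaged 1.65% ± 0.173 (SD, n = 7) in control vehicle livers and 1.49% ± 0.113 (SD, n = 6) in *Lmna* ADKO vehicle livers, with ranges of 1.5% to 1.99% and 1.34% to 1.60% that overlapped. It was 1.41%, 1.76% and 2.68% in the 3 control rescue livers and 1.55% ± 0.296 (SD, n = 8) in *Lmna* ADKO rescue livers. With the libraries that stood apart left out, control vehicle livers averaged 1.59% ± 0.0908 (SD, n = 6) and *Lmna* ADKO rescue livers 1.45% ± 0.0787 (SD, n = 7), and the SDs were smaller. Sample_8990 held the highest value of all 24 libraries for 72 of the 84 members, and Sample_8974 for 11.

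**Figure D1:**
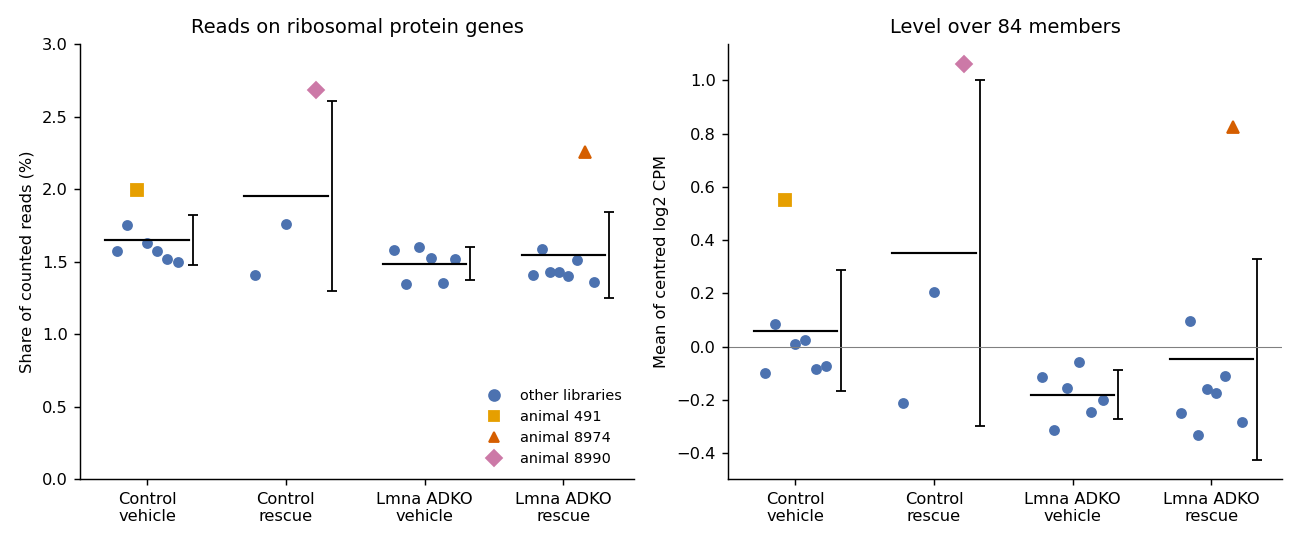
Share of counted reads on the ribosomal protein genes in percent (left) and level over 84 members as mean centred log2 CPM (right), with 1 point per library in the 4 groups, a line at the group mean and a bar of 1 SD. Sample_491, Sample_8974 and Sample_8990 have their own symbols and lie above every other library of their group in both panels.

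The difference in those 3 libraries was not limited to ribosomal protein genes. It followed gene length: among other protein-coding genes, 180 with under 1000 exonic bases had a median log2 difference from the remaining libraries of the genotype, 13 *Lmna* ADKO or 8 control livers with all 3 left out, of 1.07 in Sample_8974, 0.93 in Sample_8990 and 0.48 in Sample_491, while 1819 genes of 8000 bases or more had -0.39, -0.41 and -0.23. Genes of 1000 to 2000 exonic bases, of which there were 970, had 0.62, 0.56 and 0.30. The members had a median exonic length of 1754.5 bases and a median annotated mRNA length of 786 bases, and their median log2 differences were 1.01, 1.14 and 0.57 in the same order, above those of the class that holds their median exonic length. Against the class under 1000 exonic bases, with 1.07, 0.93 and 0.48, they were lower in Sample_8974 and higher in Sample_8990 and Sample_491. Across the 84 members, which share these libraries and are not independent, Pearson's r between the difference and log2 mRNA length was -0.17, -0.27 and -0.31. Of the 84 members, 79 in Sample_8974, 83 in Sample_8990 and 80 in Sample_491 lay above each of those 13 or 8 libraries, against 27.2%, 28.2% and 19.5% of 9614 other protein-coding genes. Mitochondrially encoded genes took 9.0%, 7.45% and 6.51% of reads, against 4.50% to 6.81% in the 21 libraries. Erythroid markers summed to 7473 CPM in Sample_8974, the highest of its group. Sample_491, with 1653 CPM, and Sample_8990, with 1413 CPM, lay below the highest of their groups, 2037 and 3148 CPM. Results are therefore given with these 3 libraries and without them, and the summaries also with the length slope of each library as a covariate.

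**Figure D2:**
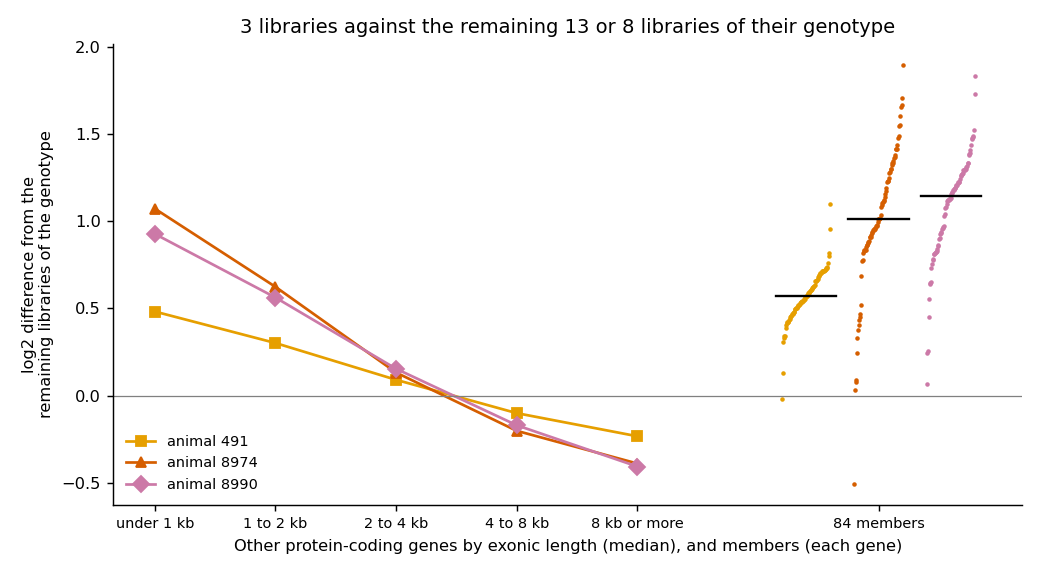
Log2 difference of 3 libraries from the median of the 13 or 8 remaining libraries of their genotype, as medians of other protein-coding genes in 5 classes of exonic length and as single points for the 84 members with their median as a black line. The lines fall from 1.07, 0.93 and 0.48 in the shortest class to below 0 in the longest, and the member medians of 1.01, 1.14 and 0.57 lie above the 0.62, 0.56 and 0.30 of the class from 1000 to 2000 bases, in which their median exonic length falls.

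Members did not differ by equal amounts in those libraries. *Rpl39*, which lines the peptide exit tunnel, differed by 1.90 in Sample_8974, 1.83 in Sample_8990 and 0.95 in Sample_491 on the log2 scale. *Rpl7l1*, a paralog of *Rpl7* with an mRNA of 2606 bases, differed by 0.09, 0.25 and -0.02. *Rps28* differed by 0.45, 1.03 and 0.68, and *Rpl22* by 0.33, 0.86 and 0.48, so that both lay less far above the other libraries in Sample_8974 than the median member did.

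*Rps2*, a 40S protein at the mRNA entry, had the most reads, with a mean of 848 CPM over all libraries and 775 CPM per kilobase of annotated mRNA. *Rpl10*, needed for the last step of 60S maturation, followed per kilobase with 674, and *Rplp1*, a stalk protein that recruits elongation factors, with 568.4. Among expressed members with several exons, the paralog *Rpl7l1* with 19.4 and *Rpl22l1* with 32.3 CPM per kilobase were near the low end, where long annotated mRNAs also place *Rps15a* (17.0) and *Rps20* (31.5). *Rpl3l*, the muscle paralog of *Rpl3*, *Rpl39l*, the testis paralog of *Rpl39*, and the pseudogene *Rpl32l* reached at most 5, 3 and 2 counts in any library, so that no level or fold is given for them. The limit that 3 counts allow was 0.124 to 0.176 CPM per library. The reads of *Rps3a1*, at 43.7 CPM, could not be kept apart from those of its intronless copies *Rps3a2* and *Rps3a3*, at 108 and 71.9 CPM. These copies took 80.2% of the counts of the 3 genes, and all 3 are uncertain. Over all members and their processed pseudogene copies, 2.75% of counts lay on copies.

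The first comparison asked how lipodystrophy changed these genes in livers of vehicle-treated mice. Most ribosomal protein mRNAs had slightly lower levels in *Lmna* ADKO than in control livers: 80 of the 84 members had a log2 fold change below 0, and the median over all 87 was -0.26, against 0.00 over all 23972 genes. Single genes rarely passed the test. At an adjusted p under 0.05 (edgeR quasi-likelihood test, Benjamini-Hochberg over all genes), 2 members fell and 0 rose, where 6.76% of all genes fell and 8.35% rose. Neither call exceeded 1.5-fold, where 8.48% of all genes were called past it, and 14 members had an unadjusted p under 0.05. With DESeq2 4 members were called. No share of all genes is given beside counts from unadjusted p values, DESeq2, other scalings or single left-out libraries, here or below. Such counts do not compare the members with other genes.

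*Rps28*, a 40S protein near the mRNA exit (chromosome 17 of GRCm38, 33819027 to 33824562), was 1 of the 2. In control livers with vehicle its lowest, median and highest values were 73.6, 75.0 and 120 CPM, and in *Lmna* ADKO livers 53.3, 62.1 and 66.3 CPM. The groups did not overlap, and the highest control value was that of Sample_491. The means were 84.3 ± 16.7 (SD, n = 7) and 61.3 ± 4.95 (SD, n = 6), and the log2 fold change was -0.46 (SE 0.142, adjusted p = 0.0262 from edgeR).

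*Rpl22*, a 60S protein that also binds RNA outside the ribosome (chromosome 4 of GRCm38, 152325742 to 152334071), was the other. Control values were 90.5, 95.7 and 131 CPM at the lowest, median and highest, and *Lmna* ADKO values 63.8, 74.1 and 84.7 CPM. All 6 *Lmna* ADKO livers lay below all 7 controls. The log2 fold change was -0.41 (SE 0.129, adjusted p = 0.0280 from edgeR). Its paralog *Rpl22l1*, which *Rpl22* is known to repress, had medians of 15.5 and 16.3 CPM and a log2 fold change of -0.09 (SE 0.270, adjusted p = 0.890 from edgeR), with overlapping groups.

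Without Sample_491, Sample_8974 and Sample_8990 the median over members was nearer to 0, at -0.16, but the spread between libraries was smaller and more genes passed: 17 members fell and 1 rose, where 8.38% of all genes fell and 9.94% rose. *Rps28* (-0.35, adjusted p = 0.00717 from edgeR) and *Rpl22* (-0.33, adjusted p = 0.00633) were among the 17. The others included the 40S genes *Rps13*, *Rps18*, *Rps20*, *Rps26*, *Rps27* and *Rpsa*, the 60S genes *Rpl14*, *Rpl27a*, *Rpl28*, *Rpl36* and *Rpl37a*, and the stalk gene *Rplp2*. With the length slope as a covariate and all 24 libraries, the median was -0.25 and 61 members fell and 1 rose, where 10.8% of all genes fell and 12.2% rose. All 17 were among the 61. The slope was measured within each genotype, with means of 0.0078 in control and 0.0069 in *Lmna* ADKO vehicle libraries. It could therefore narrow the spread between libraries, but could not adjust this comparison for a length difference between genotypes.

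**Figure D3:**
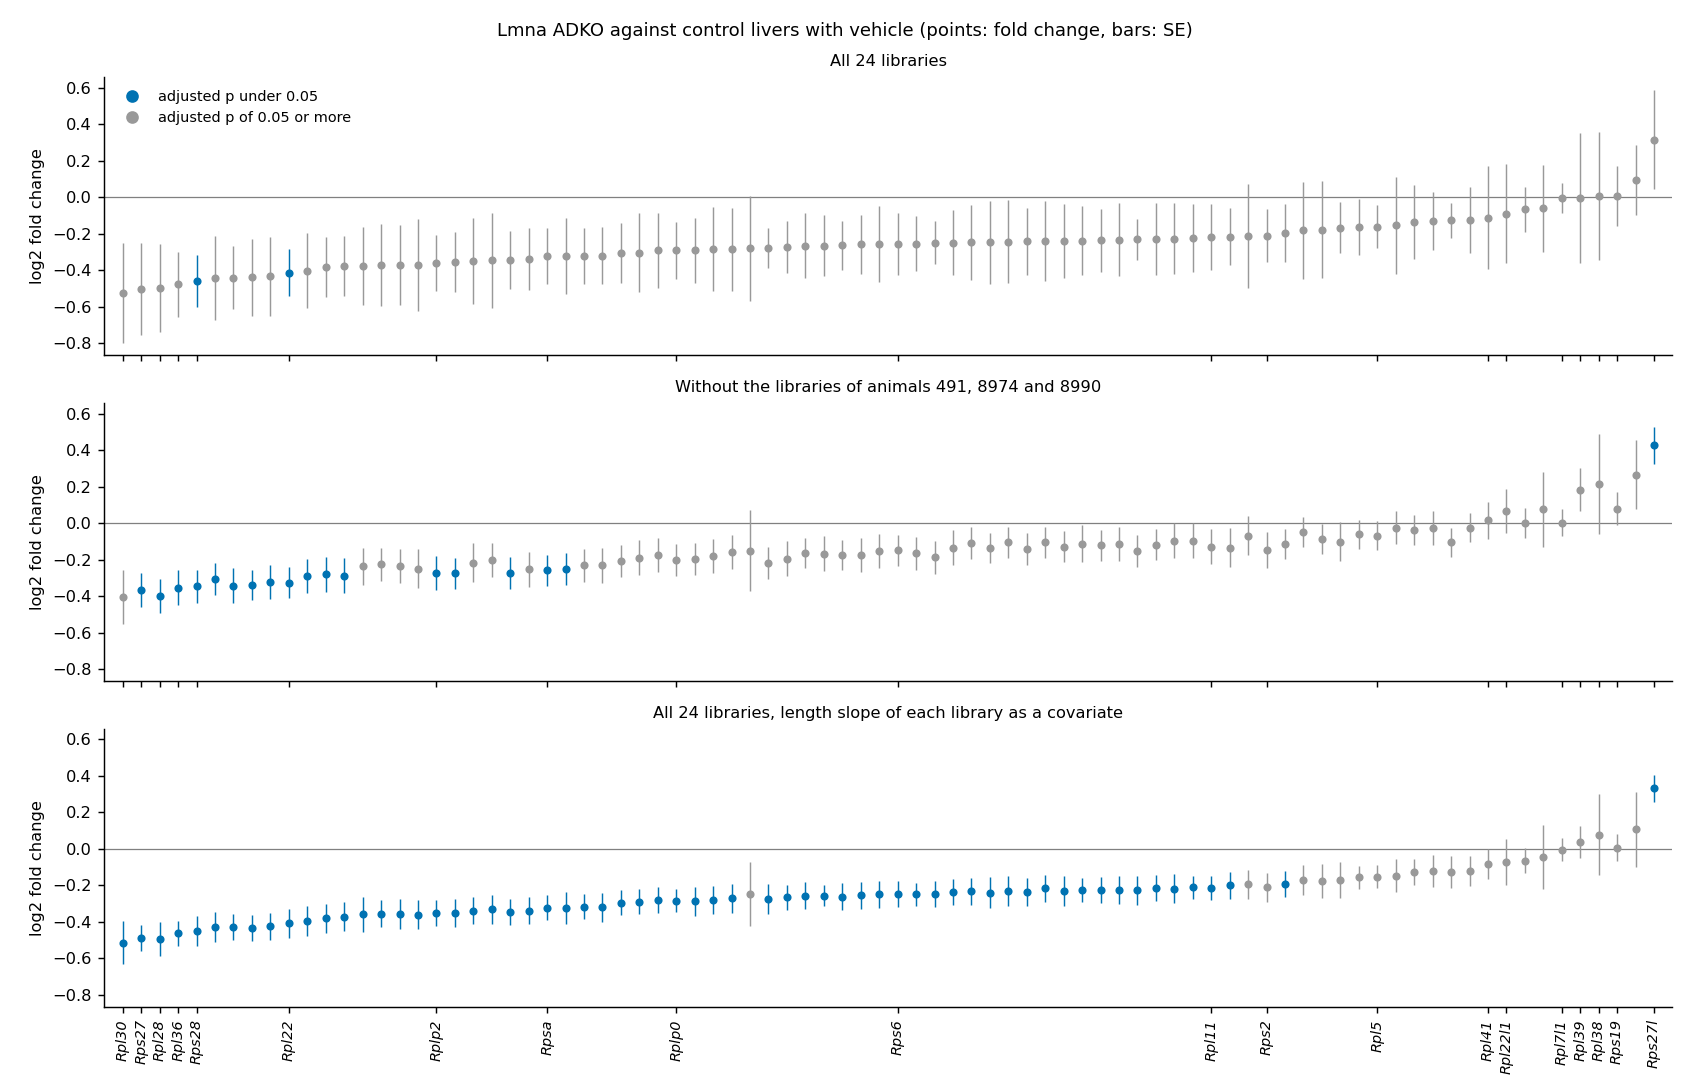
Log2 fold change (points) and SE (bars) of the 84 members at 1 CPM or more, *Lmna* ADKO against control livers with vehicle, in the same gene order in 3 panels, with the names of 20 genes described in the text on the axis: all 24 libraries, without Sample_491, Sample_8974 and Sample_8990, and with the length slope of each library as a covariate. Points past an adjusted p of 0.05 are blue, 2, 18 and 62 of them, and SEs are shorter in the lower panels.

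*Rpl28*, a 60S protein that budding yeast lacks, passed without those libraries or with the slope, but not with all libraries in the fit of the 4 groups. Its control values were 215, 247 and 350 CPM at the lowest, median and highest, and its *Lmna* ADKO values 174, 181 and 194 CPM, with no overlap. The log2 fold change was -0.50 (SE 0.242, adjusted p = 0.187 from edgeR) with all libraries and -0.40 (SE 0.0939, adjusted p = 0.00293 from edgeR) without the 3, and it also passed with all libraries of only the vehicle groups in the fit (-0.49, adjusted p = 0.00188 from edgeR). *Rps27*, a zinc-finger protein of the 40S subunit, had control values of 73.3, 86.7 and 140 CPM and *Lmna* ADKO values of 58.5, 63.3 and 76.8 CPM, so that the groups overlapped. Its log2 fold change was -0.50 (SE 0.250, adjusted p = 0.201 from edgeR) and then -0.37 (SE 0.0926, adjusted p = 0.00553 from edgeR).

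*Rps27l*, the paralog of *Rps27* and a known target of p53 (chromosome 9 of GRCm38, 66946086 to 66949516), lay in the opposite direction. Control values with vehicle were 72, 93.5 and 137 CPM at the lowest, median and highest, and *Lmna* ADKO values 98.1, 125 and 137 CPM. The groups overlapped through Sample_491 and through 2 control libraries just above the lowest *Lmna* ADKO library. The log2 fold change was 0.32 (SE 0.273, adjusted p = 0.480 from edgeR) with all libraries. It rose without the 3 libraries, by 0.43 (SE 0.103, adjusted p = 0.00368 from edgeR), and with the length slope, by 0.33 (SE 0.0764, adjusted p = 0.00169 from edgeR). It was the 1 member called higher in each of these 2 fits.

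**Figure D4:**
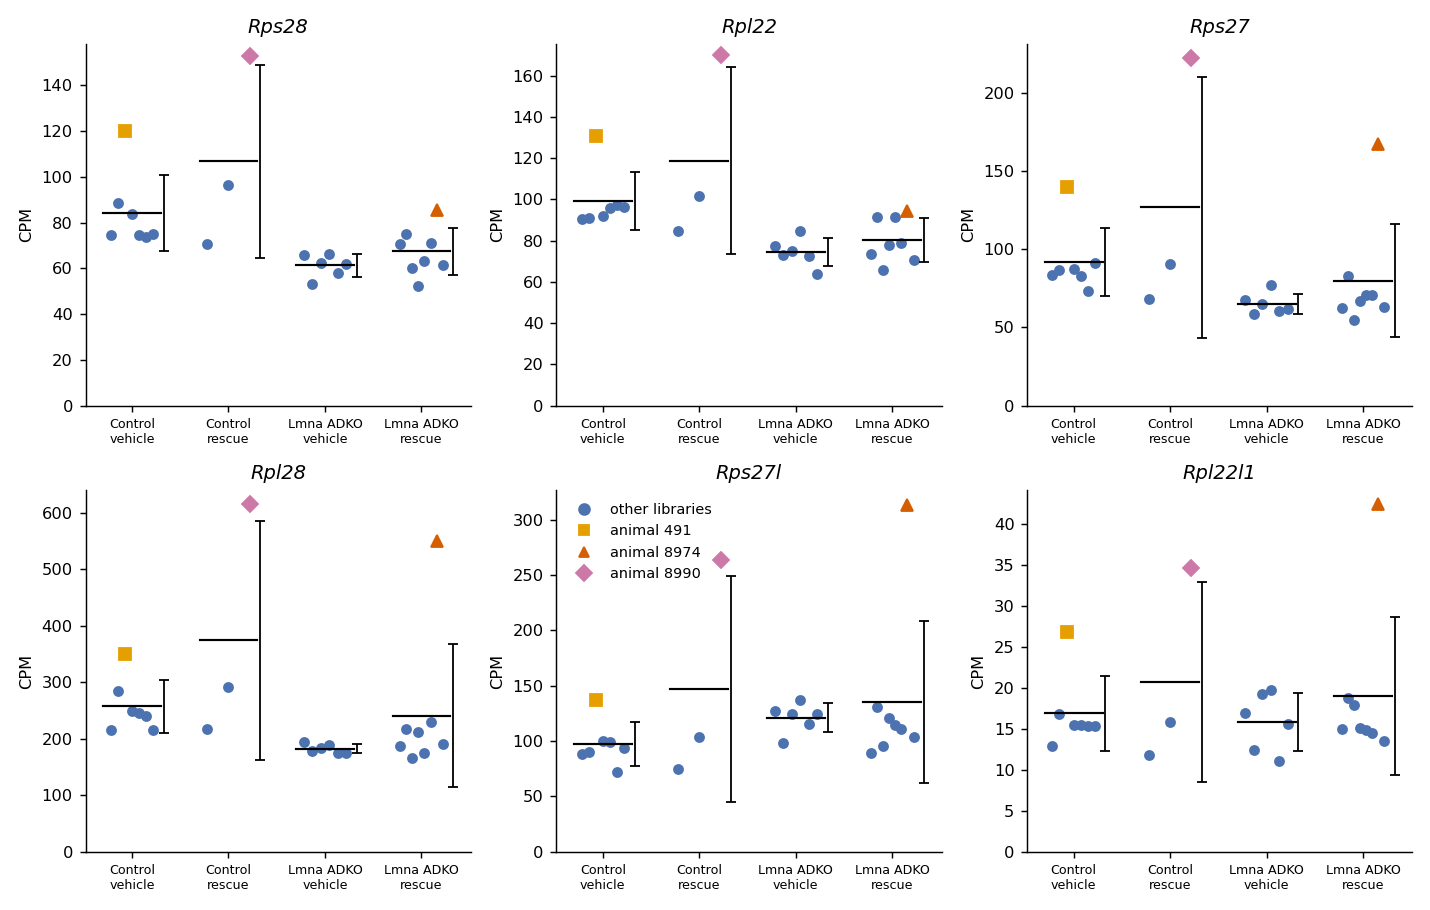
CPM of 6 members in each library (points) by group, with a line at the mean and a bar of 1 SD. With vehicle, *Lmna* ADKO livers lie below controls for *Rps28*, *Rpl22* and *Rpl28*, *Rps27l* has its median of 125 CPM above the control median of 93.5, and Sample_491, Sample_8974 and Sample_8990 are high in most panels.

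For 16 members the 6 *Lmna* ADKO values lay below all 7 control values with vehicle, and for 0 above, where 3.73% of all genes lay below and 4.22% above without overlap. Leaving out Sample_491 cannot make separated groups overlap, so it does not test these 16. It added no further member, and the shares of all genes were then 4.23% and 4.58%. They included *Rps20*, *Rps26*, *Rps28*, *Rps3a2*, *Rpsa*, *Rpl8*, *Rpl22*, *Rpl23*, *Rpl26*, *Rpl27a*, *Rpl28*, *Rpl36*, *Rpl37a* and *Rplp2*.

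Groups without overlap were also close together for members of other roles. *Rpl36*, a 60S protein, had 86.4, 101.5 and 156 CPM at the lowest, median and highest of the control vehicle libraries and 69.8, 74.5 and 85.9 CPM in *Lmna* ADKO, with a log2 fold change of -0.48 (SE 0.179, adjusted p = 0.0730 from edgeR). *Rpsa*, a 40S protein also known as a laminin receptor, had 388, 430 and 537 CPM against 322, 356 and 372 CPM. *Rplp2*, which forms the stalk with *Rplp1* on the base made by *Rplp0*, had 104.5, 119 and 164 CPM against 86.9, 98.7 and 104.4 CPM, so that the gap between the groups was narrow. The most abundant members overlapped: *Rps2* had 709.5, 915 and 1065 CPM against 686, 751 and 849 CPM, and *Rplp0* had 434.5, 481.7 and 666 CPM against 380.2, 405 and 447 CPM.

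By subunit, the median log2 fold change was -0.27 over 35 small subunit members, -0.24 over 46 large subunit members and -0.29 over the 3 stalk members. Without the 3 libraries the medians were -0.17, -0.14 and -0.20. No test of one subunit against the other was made. Members with and without a tract near the annotated start had medians of -0.27 (30 members) and -0.25 (33 members).

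Among members fixed for their known roles, none other than *Rps28* and *Rpl22* passed the test with all libraries. *Rps6*, the substrate of S6 kinase, averaged 355 ± 62.7 CPM (SD, n = 7) for controls, and 297 ± 14.3 (SD, n = 6) for *Lmna* ADKO (log2 fold change -0.25, SE 0.172). *Rpl5* and *Rpl11*, which bind 5S rRNA and can bind Mdm2, had log2 fold changes of -0.16 (SE 0.120) and -0.22 (SE 0.181). *Rps19*, the gene most often mutated in Diamond-Blackfan anaemia, averaged 118 ± 15.3 CPM (SD, n = 7) and 118 ± 9.17 (SD, n = 6), or 0.01 as log2 fold change (SE 0.164). *Rpl38* had a log2 fold change of 0.01 (SE 0.352), *Rpl39* of 0.00 (SE 0.355) and *Rpl41* of -0.11 (SE 0.282), and these 3 had wide spreads. *Rpl30*, with the largest fold change of the members at 1 CPM or more, had -0.52 (SE 0.274, adjusted p = 0.229 from edgeR).

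The calls with vehicle depended on scaling and on single libraries. Leaving out Sample_491, Sample_8960 or Sample_8976 alone gave 0 calls. With total counts in place of TMM scaling, the median of all genes moved to 0.11 and that of the members to -0.13, and 1 member was called. Animal numbers had 3 digits in 6 of the 7 control vehicle libraries and in 1 of the 6 *Lmna* ADKO vehicle libraries. With that number series as a covariate 0 members were called at an adjusted p under 0.05 by edgeR (11 at an unadjusted p under 0.05), with a median of -0.33. With vehicle the series went with the genotype in all but 2 animals. In bulk liver, fewer cells of a type and less RNA per cell cannot be told apart.

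The next comparison asked the same of livers after rescue. With all libraries 83 of 84 members had a log2 fold change below 0, and the median over all members was -0.45, against 0.02 over all genes. *Rps28* and *Rpl22* fell and 0 members rose, where 1.71% of all genes fell and 2.14% rose. At an unadjusted p under 0.05 there were 46 members, with no share of all genes beside that count. *Rps28* had 70.8, 96.3 and 153 CPM in the 3 control rescue libraries and 52.2, 67.0 and 85.3 CPM at the lowest, median and highest of the 8 *Lmna* ADKO rescue libraries. The groups overlapped, and the 153 CPM was that of Sample_8990. The log2 fold change was -0.66 (SE 0.166, adjusted p = 0.0197 from edgeR), the 1 call past 1.5-fold, where 2.88% of all genes were called past it. *Rpl22* had 84.6, 101.7 and 170 CPM against 65.8, 78.4 and 94.2 CPM, a log2 fold change of -0.56 (SE 0.152, adjusted p = 0.0315 from edgeR).

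This comparison rested on few control libraries. Without Sample_491, Sample_8974 and Sample_8990, 2 control rescue libraries remained, the median was -0.18 and 0 members were called (18 at an unadjusted p under 0.05), where 0.918% of all genes fell and 1.48% rose. *Rps28* then had -0.36 (SE 0.123, adjusted p = 0.120 from edgeR) and *Rpl22* -0.24 (SE 0.115, adjusted p = 0.314 from edgeR). Leaving out Sample_8990 alone brought the median to -0.01 with 0 calls, and leaving out Sample_8974 alone gave 61 lower members. With the length slope as a covariate the median was -0.31 and 51 members fell, where 3.89% of all genes fell and 4.81% rose. All 51 were among the 61 that fell with vehicle in that fit, and the 2 fits share the estimate of the slope. Here too the slope, measured within each genotype, could not adjust for a length difference between genotypes. The fold change farthest from 0 was that of *Rpl13a*, a subunit of the interferon-gamma-activated inhibitor of translation, with -0.71 (SE 0.296, adjusted p = 0.205 from edgeR). *Rpl36* had -0.69 (SE 0.209, adjusted p = 0.0611 from edgeR). Leaving out Sample_8958, the control rescue library with the lowest member level, gave 15 calls.

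The effect of rescue within each genotype was examined last. In control livers all 84 members had a log2 fold change above 0 after rescue, with a median over all members of 0.40 against 0.00 over all genes, but 0 members passed the test (4 at an unadjusted p under 0.05, and 0 called with DESeq2), where 0.0501% of all genes rose and 0.00417% fell. *Rpl38* had the largest value, 0.76 (SE 0.422, adjusted p = 0.771 from edgeR), with 22, 41.0 and 74.7 CPM in the 3 rescue libraries and 14.4, 22.8 and 48.2 CPM at the lowest, median and highest of the 7 vehicle libraries. The highest value of each group was that of Sample_8990 or Sample_491. Without the 3 libraries the median was 0.02, with 53 members above 0 and 31 below, with the length slope it was 0.08, and without Sample_8990 alone it was -0.07. All 3 rescue libraries had 4-digit animal numbers, against 1 of the 7 vehicle libraries. Number series and treatment thus nearly went together in controls.

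In *Lmna* ADKO livers 81 of 84 members had a value above 0 after rescue, with a median over all members of 0.19 and 0 calls at an adjusted or unadjusted p under 0.05 (0 called with DESeq2, 1 at an unadjusted p under 0.05). No gene of the whole table passed in this comparison (0.0%). *Rpl28* had the largest fold change, 0.40 (SE 0.235, adjusted p = 0.725 from edgeR), with 166, 201 and 550 CPM at the lowest, median and highest of 8 rescue libraries, the 550 CPM in Sample_8974. Without the 3 libraries the median was 0.02, and with the length slope 0.03. *Rps27l* without them had -0.15 (SE 0.0990, adjusted p = 0.624 from edgeR). Animal numbers had 3 digits in 4 of the 8 rescue libraries and in 1 of the 6 vehicle libraries.

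The difference between the effects of genotype with rescue and with vehicle had a median of -0.18 over the members, and 0 members passed (0 at an unadjusted p under 0.05 with edgeR, 1 with DESeq2), where 0.00417% of all genes did so downward. Without the 3 libraries the median was 0.00, with the length slope -0.04, and without Sample_8990 0.27. The lowest adjusted p of the members was shared by *Rps19*, with a difference of -0.43 (SE 0.256, adjusted p = 0.984 from edgeR), *Rpl7l1* and the pseudogene *Rpl6l*. These comparisons share groups, so that 1 high library moves several of them.

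**Figure D5:**
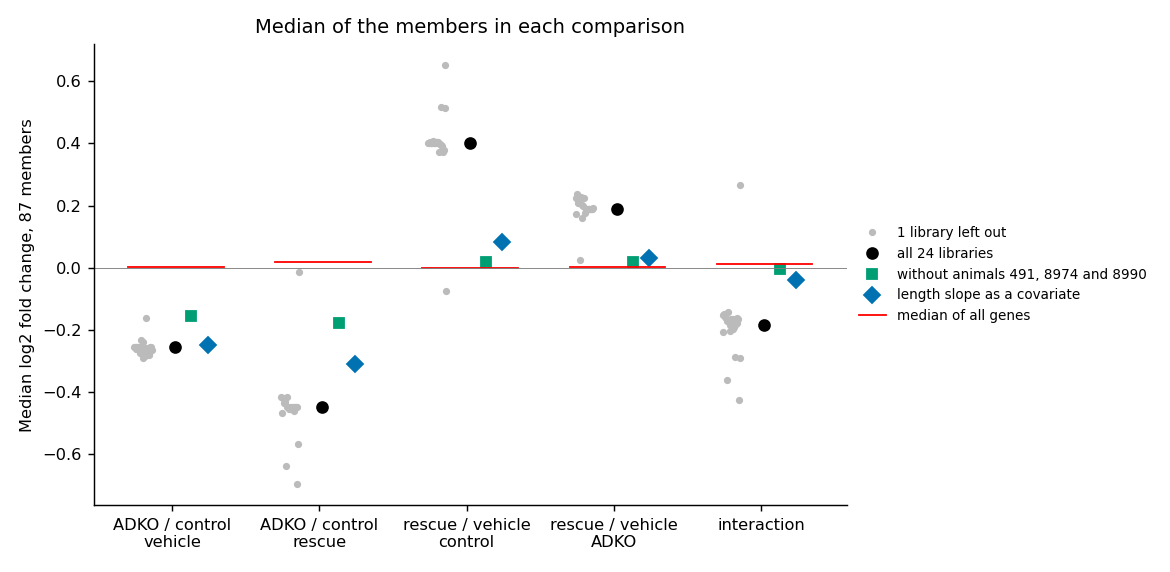
Median log2 fold change over the 87 members in each of the 4 comparisons and the interaction, with all 24 libraries (black), without Sample_491, Sample_8974 and Sample_8990 (green), with the length slope as a covariate (blue) and with 1 library left out at a time (grey), beside the median of all genes (red). Without those libraries both rescue-against-vehicle medians are 0.02, and both genotype medians stay below 0, at -0.16 and -0.18.

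Other genes of translation were counted from lists, to be read against the 6.76% of all genes that fell and the 8.35% that rose with vehicle, the 8.38% and 9.94% without the 3 libraries, and the 10.8% and 12.2% with the length slope. With vehicle, 7 of 24 other mRNAs with a TOP tract fell and 2 rose in *Lmna* ADKO livers, with a median log2 fold change of -0.23. *Snhg1*, a host gene of small nucleolar RNAs, had -0.95 (SE 0.164, adjusted p = 0.000157 from edgeR). *Nap1l1*, a histone chaperone, rose by 0.84 (SE 0.125, adjusted p = 2.65e-05 from edgeR). Of 8 elongation factor genes, some of them in both lists, 2 fell and 0 rose, with a median of -0.19. They were *Eef2*, which moves the ribosome along the mRNA, with -0.37 (SE 0.107, adjusted p = 0.0162 from edgeR), and *Eef1d*, a subunit of the exchange factor of elongation factor 1, with -0.45 (SE 0.158, adjusted p = 0.0498 from edgeR). With total counts as scaling or with the number series, neither of these 2 passed. Without the 3 libraries 9 TOP mRNAs fell and 1 rose, and 3 elongation factor genes fell. With the slope 14 TOP mRNAs fell and 1 rose, and 4 elongation factor genes fell.

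Of 29 initiation factor genes 2 fell and 2 rose, with a median of 0.05, shares near those of all genes. The counts were 3 and 4 without the 3 libraries and 5 and 7 with the slope, where both shares were above the 10.8% and 12.2% of all genes. The cap-binding protein gene *Eif4e* rose by 0.37 (SE 0.0893, adjusted p = 0.00446 from edgeR), and *Eif3d*, for a subunit of eIF3, had -0.36 (SE 0.0846, adjusted p = 0.00365 from edgeR), or -0.25 (adjusted p = 0.0632 from edgeR) with total counts. Of 54 ribosome biogenesis genes tested, 8 fell and 2 rose, with a median of -0.03, where 6.76% of all genes fell and 8.35% rose. The counts were 11 and 4 without the 3 libraries and 12 and 5 with the slope. *Emg1*, an 18S rRNA methyltransferase, had -0.58 (SE 0.105, adjusted p = 0.000257 from edgeR), and *Heatr1*, which acts in rRNA transcription, had -0.48 (SE 0.101, adjusted p = 0.00121 from edgeR).

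Of 26 genes of mTOR signalling and TOP mRNA control 7 fell and 6 rose, with a median of 0.00, where 6.76% of all genes fell and 8.35% rose. The counts were 7 and 7 without the 3 libraries and 8 and 7 with the slope. *Larp1*, which binds TOP mRNAs, averaged 116 ± 8.60 CPM (SD, n = 7) for controls, and 88.9 ± 7.17 (SD, n = 6) for *Lmna* ADKO, which is -0.38 as log2 fold change (SE 0.120, adjusted p = 0.0302 from edgeR). *Mtor* rose by 0.44 (SE 0.122, adjusted p = 0.0129 from edgeR). *Ddit4*, a stress-induced inhibitor of mTOR complex 1, rose by 2.16 (SE 0.359, adjusted p = 0.000255 from edgeR). *Pdcd4*, of the same list, had -0.52 (SE 0.108, adjusted p = 0.00113 from edgeR). *Myc*, a transcription factor that drives ribosome production, rose by 0.95 (SE 0.210, adjusted p = 0.00215 from edgeR) from a low level of 2.74 ± 1.29 CPM (SD, n = 7). *Larp1* was named after its values were seen, as was *Mtor*.

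With rescue and all libraries, 1 TOP mRNA, 1 elongation factor gene and 3 biogenesis genes fell. The TOP mRNA and the elongation factor gene were the same gene, *Eef1d* (-0.64, SE 0.185, adjusted p = 0.0464 from edgeR). In this fit 2 genes of mTOR signalling rose and 0 initiation factor genes passed, where 1.71% of all genes fell and 2.14% rose. With the slope 8 TOP mRNAs, 2 elongation factor, 4 initiation factor, 9 biogenesis and 2 mTOR signalling genes fell. In that fit 1 initiation factor and 2 mTOR signalling genes rose, where 3.89% of all genes fell and 4.81% rose. When these 3 libraries were left out, 1 gene of mTOR signalling rose and 1 fell, and 0 genes of the other 4 lists passed. The shares of all genes were then 0.918% lower and 1.48% higher. In both rescue-against-vehicle comparisons and the interaction, 0 genes of these lists passed. Of 9 ribosomal protein genes and copies outside the symbol rule, 0 passed with vehicle (median -0.40), 2 fell without the 3 libraries and 4 fell with the slope. *Fau*, also on the TOP mRNA list, had -0.47 (SE 0.237, adjusted p = 0.211 from edgeR), or -0.34 (SE 0.108, adjusted p = 0.0253 from edgeR) without the 3.

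The 78 genes of the mitochondrial ribosome, which translates the few proteins encoded in mitochondrial DNA, gave a comparison with short mRNAs of another ribosome. With vehicle their median log2 fold change was -0.10, with 3 lower and 1 higher, shares below those of all genes, against -0.26 over the cytosolic members. The counts were 6 lower and 5 higher without the 3 libraries and 17 lower and 6 higher with the slope, where the median was -0.09. With the slope the share that fell was above the 10.8% of all genes, and the share that rose was below their 12.2%. Without the 3 libraries the medians were -0.04 and -0.16. With rescue they were -0.16 with all libraries and 0.01 without the 3, against -0.45 and -0.18. No test of the difference between the 2 families was made.

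As checks of the labels, hepatocyte markers were abundant in every group, with summed levels of 69060 to 141490 CPM and 1 of 6 higher and 2 lower in *Lmna* ADKO livers with vehicle. Stellate cell and fibroblast markers moved with genotype: 4 of 6 were higher with vehicle, with summed levels of 183 to 296 CPM in controls and 271 to 442 CPM in *Lmna* ADKO livers. Of 5 erythroid markers, 1 was higher in *Lmna* ADKO than in control livers with vehicle. Their summed medians were 1231 CPM with vehicle and 1413 CPM with rescue in controls. In *Lmna* ADKO livers they were 1002 and 3399 CPM, and no gene of the whole table passed between those 2 groups. Macrophage markers summed to 371 to 541 CPM in controls and 224 to 427 CPM in *Lmna* ADKO livers with vehicle, with 0 of 5 called. Their part in the results was not tested. *Lmna* averaged 18.6 ± 2.47 CPM (SD, n = 7) for controls, and 26.7 ± 2.57 (SD, n = 6) for *Lmna* ADKO with vehicle. The deletion is in adipocytes, so liver *Lmna* does not check the genotype labels. Liver *Fgf21* had medians of 8.04 CPM with vehicle and 4.81 CPM with rescue in *Lmna* ADKO livers, and 2.80 and 3.80 CPM in controls, so that these counts do not mark the treated livers.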

How the data were processed

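Liver polyA RNA of 24 female mice was sequenced from stranded libraries. Per the labels, reads were processed with cutadapt 4.8, FastQC 0.11.8, STAR 2.7.8a and RSEM 1.3.3 on GRCm38; the authors deposited 1 table of raw counts per gene, with genes at 0 in all samples left out. Whether multi-mapping reads were divided or dropped, and the strand setting, are not given in the sources used here. Symbols and lengths came from GENCODE M21, which located 23926 of 23972 genes.

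Counts were tested with edgeR 4.0.16 in R 4.3.3 (TMM, quasi-likelihood, 1 fit of the 4 groups, Benjamini-Hochberg over all genes, no filter). CPM values use TMM-scaled library sizes, and log2 CPM a prior count of 2. For the length slope, each library's log2 CPM minus the median of its genotype was regressed on log2 exonic length (9614 protein-coding genes, without members). Subtracting that median removes a length difference between genotypes, so the slope cannot adjust for it. DESeq2 1.42.0, other scalings, filterByExpr, covariates and left-out libraries were alternatives. On simulated counts for control against *Lmna* ADKO with vehicle over 23758 genes, edgeR recovered 95% of 2-fold and 13% of 1.25-fold changes, with 5 false calls. Far fewer genes were changed in the simulation than were called in these data. Its spread was also estimated with all 24 libraries, so these rates need not hold for the fits reported here.

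Members, gene lists and comparisons were chosen with earlier results of these data known. Named genes were a fixed list of members by role, the 5 largest changes and the extreme adjusted p values per comparison, members past 1.5-fold or against the median, and up to 3 genes per list and comparison. Replicates were separate animals, and every pair of a group differed beyond sampling noise (lowest chi-square per degree of freedom 13.1). Some members are counted but not reported by name here.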

Additional observations from a re-analysis of the deposited data

Results flagged for a closer look

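Within groups of 4 to 10 libraries, the highest or lowest library was checked with Dixon's ratio, its gap to the nearest library over the group's range, for the share of reads, the member level and the genes *Rps28*, *Rpl22* and *Rps27l*. Chance flags about 1 in 20 groups. In the *Lmna* ADKO rescue group, Sample_8974 was far above the others for the share of reads on ribosomal protein genes (ratio 0.742, 2.26% of counted reads), the member level (ratio 0.63) and *Rps27l* (ratio 0.693). In the control vehicle group, Sample_491 was far above the others for the member level (ratio 0.717), *Rps28* (ratio 0.624) and *Rpl22* (ratio 0.801). Over single members at 1 CPM or more, 56 were past the limit in Sample_8974 and 55 in Sample_491, and 2 in the *Lmna* ADKO vehicle library of Sample_8972. The control rescue group, with 3 libraries, could not be checked. Sample_8974 and Sample_491 had been set apart at the outset, so their flags are not an independent detection.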

How the results depend on the processing

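The counts of members in this section have no share of all genes beside them, so they do not compare the members with other genes. With vehicle, 2 members were called in the fit as reported. The number was 1 with total counts, 4 with the DESeq2 Wald test, 18 without Sample_491, Sample_8974 and Sample_8990, 62 with the length slope, 0 with the number series as a covariate, 27 with only the groups compared and 0 past 1.5-fold. Leaving out 1 library at a time gave 0 to 10 calls, with 0 without Sample_491, Sample_8960 or Sample_8976 and 10 without Sample_8974. *Rps27l* had 0.13 with the number series, against 0.32.

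With rescue, 2 members were called. The number was 4 with total counts, 9 with DESeq2, 5 after filterByExpr, 0 without these 3 libraries, 51 with the length slope, 1 with the number series, 0 with only the groups compared, 0 with only 4-digit animal numbers and 1 past 1.5-fold. Leaving out 1 library gave 0 to 61 calls and medians of -0.70 to -0.0135; Sample_8958 left out gave 15.

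For rescue against vehicle in controls the median was 0.0188 without these 3 libraries, and -0.0731 to 0.65 with 1 library left out. For the interaction it was -0.42 to 0.27 with 1 library left out. Other medians moved by less than the pooled SD of the member level within groups, 0.331, which includes these 3 libraries. That SD is larger than the size of the vehicle median itself. It is therefore a wide limit and does not show that the vehicle median is stable. Adding processed pseudogene copies to their parent genes, chosen after seeing the data, left 2 calls with vehicle and 2 with rescue. Without the 10 members with the most reads the mean share was 1.2% in control vehicle, 1.09% in *Lmna* ADKO vehicle and 1.13% in *Lmna* ADKO rescue libraries.

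Over 156 named genes and comparisons and 5329 values under alternatives, 110 lost their call, 69 gained one and 0 reversed with a call. No paired analysis was possible because no animal number recurs across groups. Intervals and limits from counts cover counting error only, and no cause of these changes was tested.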
